A study of Mus musculus with 4 samples.

Results

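The genes described here are 10 mouse genes for proteins that bind actin: the beta-thymosins Tmsb4x and Tmsb10, profilin Pfn1, cofilin Cfl1, the coronins Coro1a, Coro1b and Coro1c, the Arp2/3 subunit Arpc1b, the bundling protein Lcp1 (L-plastin) and the capping protein Capg. They were chosen by name from 52636 counted gene identifiers, as broadly used members set against members enriched in white blood cells, because Tmsb4x and Coro1a had been seen to be higher in the knockout libraries. The values of that comparison therefore chose the genes and are given for these 10 as a description. Of the 10, 9 were among the 16557 genes with enough reads to be tested, and Coro1b was not. RNA came from otic ectoderm of mouse otocysts, the closed epithelial vesicles that become the inner ear, after purification by fluorescence-activated sorting. The groups were 2 libraries labelled Brg1cKO, for a conditional knockout of the chromatin remodeler gene Brg1, and 2 libraries labelled Control. Each stranded, randomly primed library was made from 3000 cells and read over 75 bases. The Cre driver, the deleted exons, the alleles carried by the Control embryos, the embryonic age and the number of embryos per library are not given in the labels. Nothing in them says that the replicates came from separate sorts, so the p-values measure no more than how these libraries vary, and that variation may be technical.

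Cells keep a pool of actin monomers next to a network of filaments. Beta-thymosins hold monomers in reserve, profilin hands them to growing filament ends, and the Arp2/3 complex starts new branches. Coronins act on Arp2/3 and cofilin at these branches, cofilin severs old filaments, plastins bundle them, and capping proteins stop their growth. White blood cells crawl and engulf with this machinery, and they add their own forms of several parts, such as Coro1a and Lcp1, to the forms used by most cells.

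The libraries labelled Brg1cKO held 29361382 and 25875555 reads in genes and the Control libraries 15357265 and 19132360, with 20859 and 20902 against 17266 and 17086 genes detected. The share of all records that fell in genes was 64.0% and 63.7% against 48.2% and 49.3%. Levels are given as TMM-scaled CPM, a gene's reads corrected for library size. Markers of the labelled tissue were present in every library but lower in Brg1cKO: the 16 otic markers summed to 400 and 418 CPM in Brg1cKO against 2046 and 2245 CPM in Control, and Oc90, a protein of the otoconia, stood at 44.6 and 49.1 against 782 and 732 CPM. The 18 macrophage markers ran the other way, summing to 1811 and 1713 CPM in Brg1cKO and 406 and 481 CPM in Control. The 12 endothelial markers summed to 3365 and 3315 against 3058 and 2990 CPM. In such bulk libraries, fewer cells of a type and less RNA per cell cannot be told apart.

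The starts of the genes that prompted the choice are shown with Arpc1b, the only one of the 9 genes with a sequence in the promoter table used whose window held the letters GAGGAAGT, a core that the white blood cell factor PU.1 can bind. Each window runs from 250 bases before an annotated start to 50 after it, 5′ to 3′ on the gene's strand, from RefSeq on GRCm38.p6. Coro1a has a pair of annotated starts. Capitals mark GGGCGG, the core of the GC box, on either strand (CCGCCC when reversed) and, in Arpc1b, GAGGAAGT. No marked match overlaps one of the other motif.
Tmsb4x, chrX:167209169-167209468, minus strand: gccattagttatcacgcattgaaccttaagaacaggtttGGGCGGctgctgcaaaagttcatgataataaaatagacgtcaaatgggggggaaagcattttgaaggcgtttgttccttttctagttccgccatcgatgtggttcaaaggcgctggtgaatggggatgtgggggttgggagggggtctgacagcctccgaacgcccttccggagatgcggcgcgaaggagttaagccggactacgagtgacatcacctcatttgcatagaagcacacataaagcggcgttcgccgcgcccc
Coro1a, chr7:126704767-126705066, minus strand: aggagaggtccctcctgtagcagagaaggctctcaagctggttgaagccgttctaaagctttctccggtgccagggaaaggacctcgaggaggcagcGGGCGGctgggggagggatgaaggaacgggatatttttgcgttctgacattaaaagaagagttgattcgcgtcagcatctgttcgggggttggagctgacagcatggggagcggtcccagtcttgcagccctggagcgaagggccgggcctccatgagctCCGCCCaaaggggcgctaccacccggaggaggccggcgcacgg
Coro1a, chr7:126704171-126704470, minus strand: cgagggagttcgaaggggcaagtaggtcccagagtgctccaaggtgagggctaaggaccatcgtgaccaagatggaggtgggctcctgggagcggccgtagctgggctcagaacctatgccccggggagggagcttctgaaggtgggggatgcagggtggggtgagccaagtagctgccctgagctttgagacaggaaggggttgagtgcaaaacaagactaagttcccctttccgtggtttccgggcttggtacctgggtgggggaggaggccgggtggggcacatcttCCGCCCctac
Arpc1b, chr5:145114006-145114305, plus strand: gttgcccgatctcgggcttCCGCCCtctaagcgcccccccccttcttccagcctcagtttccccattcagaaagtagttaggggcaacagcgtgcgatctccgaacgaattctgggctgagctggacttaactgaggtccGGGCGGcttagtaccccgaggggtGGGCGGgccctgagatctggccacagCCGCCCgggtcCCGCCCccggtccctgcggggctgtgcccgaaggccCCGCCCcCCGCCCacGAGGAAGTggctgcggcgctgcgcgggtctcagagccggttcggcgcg

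Across the 13 windows of these 9 genes, GGGCGG was found in 11, against 35.7% of all 32851 windows in the table. GAGGAAGT was in 1 of 13 against 3.20% of all windows, and CCAAT, searched on both strands, in 1 of 13, that of Cfl1, against 37.4%. TATAAA, the TATA box letters, was in 0 of 13 windows against 13.6% of all, and the CArG box, the site of serum response factor, in 0 of 13 against 1.63%. Neighbouring windows among the 3 of Tmsb10 overlap, so the 13 are not separate sequences. A match is a description of the letters and shows no binding.

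Among the 9 measured genes, 7 stood higher in both Brg1cKO libraries than in both Control libraries, Coro1c stood lower in both, and Tmsb10 overlapped. Over all tested genes, 26.3% had both Brg1cKO libraries above both Control libraries and 17.8% had both below. In the fit over all genes 1 of the 9 passed, Tmsb4x, where 0.0302% of all tested genes passed (5 of 16557, edgeR), 0.0121% as higher and 0.0181% as lower in Brg1cKO. Because this comparison chose the genes, nothing is read from those counts.

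Tmsb4x, whose peptide product is the main reserve of free actin in many cells and is abundant in blood cells, stood at 1626 and 1597 CPM in Brg1cKO and at 858 and 855 CPM in Control. The replicates lay close together in each group, and the groups were far apart. This was 1.88-fold, a log2 fold change of 0.91 ± 0.0861 (SE; 95% interval 0.71 to 1.12). The gene lies on the X chromosome, from 167207093 to 167209315 in mm10, on the minus strand. Xist, the RNA of the inactive X in females, stood at 412 and 432 CPM in Brg1cKO against 260 and 281 CPM in Control. The summed level of 4 genes of the Y chromosome was 78.8 and 91.3 against 237 and 141 CPM. The part of the embryos' sex in the Tmsb4x difference was not tested. No other annotated transcript matched Tmsb4x at 95% identity or more over at least 75 bases.

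Tmsb10, the sister peptide with the same monomer-holding role, showed no such separation. It stood at 602 and 623 CPM in Brg1cKO, and at 535 and 716 CPM in Control, so the Control libraries lay on either side of the Brg1cKO ones. The fitted log2 fold change of -0.03 ± 0.156 (SE; 95% interval -0.40 to 0.34) turned in sign with upper quartile scaling (0.012). Per kilobase of exon, Tmsb4x made up 71.5% and 70.5% of the summed level of both genes in Brg1cKO, against 59.9% and 52.6% in Control. Reads of Tmsb10 may be shared with Gm9844 on chromosome 7, which matches it at 99.1% over 466 bases. With the 4 counted near-identical copies added, which gave 3.87% to 5.60% of the sum, the levels were 626 and 656 against 563 and 758 CPM.

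Pfn1, which loads monomers onto growing ends, stood at 702 and 761 CPM in Brg1cKO and at 492 and 548 CPM in Control. The groups did not overlap, at a log2 fold change of 0.49 ± 0.120 (SE). Its neuronal relative Pfn2 stood at 45.5 and 57.2 against 77.5 and 113 CPM, so Pfn1 made up 95.8% and 95.1% of the level per kilobase of both profilins in Brg1cKO and 90.3% and 87.7% in Control. Cfl1, the broadly used filament-severing cofilin, stood at 1209 and 1219 CPM in Brg1cKO against 987 and 1057 CPM in Control, a log2 fold change of 0.25 ± 0.0920 (SE). It made up 76.3% and 78.2% of the level per kilobase of Cfl1, Cfl2 and Dstn in Brg1cKO, close to the 76.7% and 77.4% in Control. Cfl1 shares 468 exonic bases with Snx32 on the opposite strand, whose reads cannot be told apart if the counting ignored strand.

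**Figure D1:**
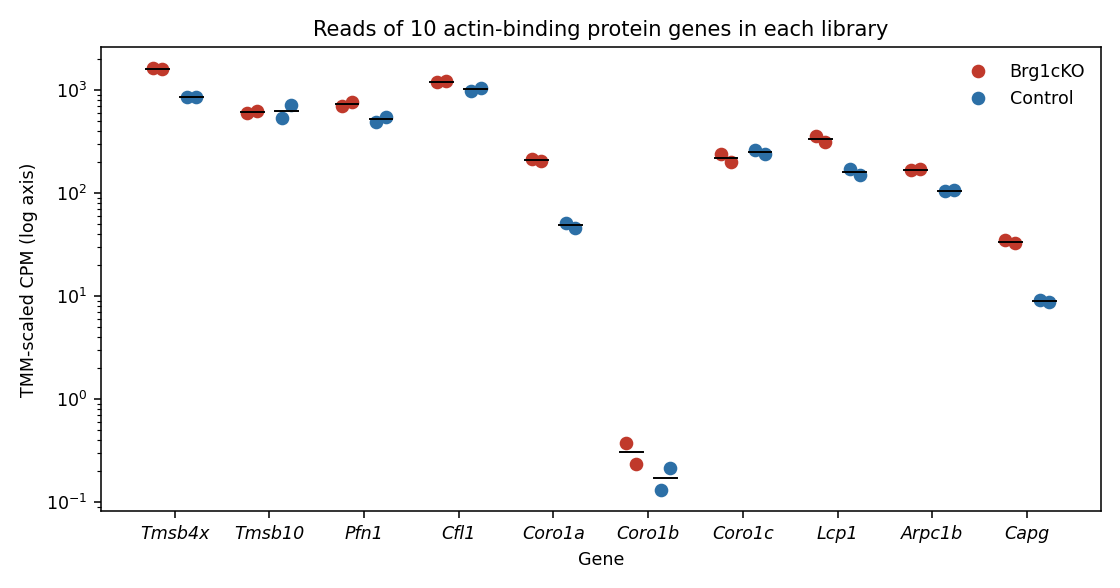
TMM-scaled CPM, on a log axis, of the 10 genes in 2 Brg1cKO libraries (red, left) and 2 Control libraries (blue, right), with each group's mean as a bar. Coro1a, Capg and Lcp1 show the widest gaps, Tmsb10 overlaps, and Coro1b lies under 1 CPM throughout.

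Coro1a, a coronin made chiefly in white blood cells, had levels of 214 and 205 CPM in Brg1cKO and of 51.1 and 45.9 CPM in Control. These are 6258 and 5305 reads against 787 and 866. The groups lay far apart, 4.31-fold in their means and the most of the 9, or 2.11 ± 0.232 (SE; 95% interval 1.56 to 2.65) as a log2 fold change. Coro1c, a coronin made by most cells, stood at 238 and 202 CPM in Brg1cKO and at 261 and 239 CPM in Control, a narrow gap in the other direction at a log2 fold change of -0.19 ± 0.178 (SE; 95% interval -0.60 to 0.23). Per kilobase, Coro1a thus held 75.6% and 77.8% of the summed type I coronin level in Brg1cKO and 40.4% and 39.98% in Control. Those shares leave out most of what Coro1b may give, for the reason that follows.

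Coro1b, the third type I coronin and widely expressed, was almost without reads: 11 and 6 in Brg1cKO and 2 and 4 in Control. The genes around it were equally empty. It lies on chromosome 19, from 4148619 to 4154035 in mm10, within a run of 18 protein-coding genes over 198 kb. The run was extended from Coro1b to each side while a gene's mean level stayed under 10 CPM. Of all 709 protein-coding genes of chromosome 19, 51.8% were under that limit. The highest mean level in the run was 1.67 CPM, and 12 of the 18 had 0 reads in every library. Cdk2ap2 and Gstp1, genes that most cells use, were among those at 0, and Ppp1ca, a catalytic subunit of protein phosphatase 1, had 41 and 26 reads in Brg1cKO against 6 and 73 in Control. The next gene before the run, Ndufv1, had 3290 and 2513 against 973 and 2143 reads. Beyond Ndufv1, Nudt8 and Tbx10 again had 0 reads in every library. The next gene after the run, Ssh3, had 295 and 210 against 470 and 7 reads. Grk2, further on, had 6149 and 4656 against 2783 and 3911. Since the whole run was near 0 in all 4 libraries, the counts give no usable level of Coro1b and no comparison of it; the cause was not tested.

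**Figure D2:**
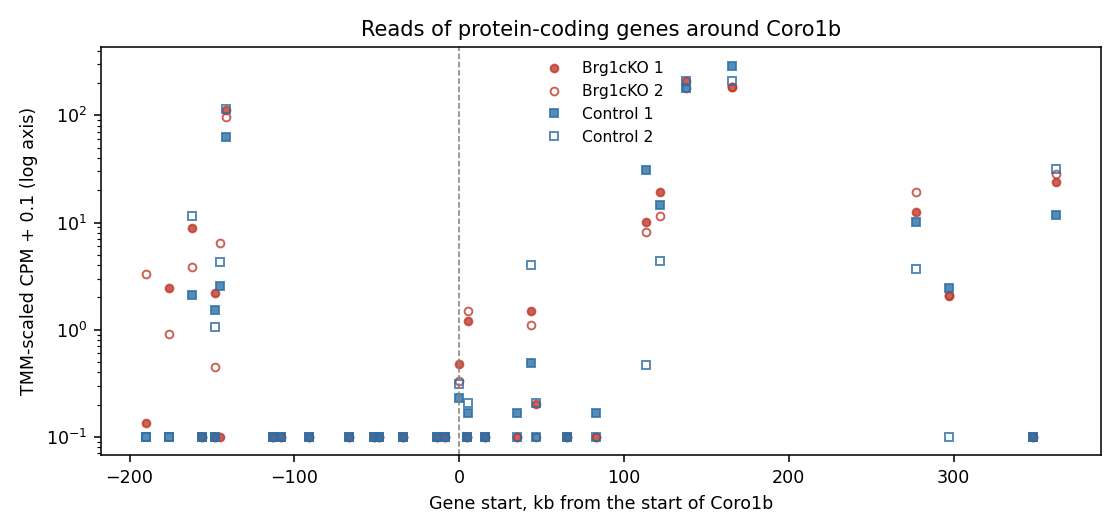
TMM-scaled CPM plus 0.1, on a log axis, of protein-coding genes by the distance of their start from that of Coro1b (dashed line), for 2 Brg1cKO and 2 Control libraries. Points on the floor are genes at 0, and the 18 genes of the run around Coro1b average at most 1.67 CPM.

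Lcp1, the plastin that bundles filaments in white blood cells, had 362 and 315 CPM in Brg1cKO and 171 and 152 CPM in Control. The groups did not overlap, and the log2 fold change was 1.07 ± 0.175 (SE), or 2.10-fold. Its broadly expressed relative Pls3 stood at 119 and 83.7 against 75.1 and 82.4 CPM, and Pls1 at 9.90 and 4.78 against 5.46 and 30.1 CPM. Lcp1 made up 55.5% and 61.3% of the plastin level per kilobase in Brg1cKO and 48.5% and 37.0% in Control.

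Capg, a capping protein that macrophages make in quantity, stood at 35.04 and 32.6 CPM in Brg1cKO and at 9.09 and 8.75 CPM in Control. It was the least abundant of the 9, with 1026 and 845 against 140 and 165 reads. The groups were well apart, 3.79-fold in their means, at a log2 fold change of 1.92 ± 0.605 (SE; 95% interval 0.50 to 3.34). Arpc1b, a form of the Arp2/3 beta-propeller subunit whose loss in humans mainly affects blood cells, stood at 166 and 171 CPM in Brg1cKO and at 105 and 107 CPM in Control, a log2 fold change of 0.67 ± 0.212 (SE). Its alternative Arpc1a stood at 65.8 and 63.4 against 78.9 and 79.8 CPM, on the other side, so the Arpc1b share of both per kilobase was 55.9% and 57.5% in Brg1cKO and 40.2% and 40.1% in Control. Arpc1b shares 931 exonic bases, 18.2% of its own, with Pdap1 on the opposite strand. Its near-identical copy Gm5637 held 9.43% of their summed level in Control replicate 1 and 0.643% to 2.01% in the other libraries.

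By mean level per kilobase of exon over the 4 libraries, Tmsb4x came first of the 9, at rank 14 of all tested genes, followed by Tmsb10 at rank 28, Cfl1 at rank 33 and Pfn1 at rank 65. Coro1a came next at rank 926, then Arpc1b at 1938, Lcp1 at 1993, Coro1c at 2215 and Capg at 6313. In Brg1cKO Coro1a stood at 76.8 and 73.5 CPM per kb, above Lcp1 (38.1 and 33.2), Arpc1b (32.5 and 33.4) and Coro1c (24.6 and 20.9). In Control the 4 lay closer and in another order, with Coro1c at 27.0 and 24.7, Arpc1b at 20.6 and 20.8, Coro1a at 18.4 and 16.5 and Lcp1 at 18.02 and 15.96 CPM per kb. Lcp1 and Arpc1b did not differ beyond their spread in Brg1cKO, nor Coro1a and Lcp1 in Control.

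Set against the macrophage markers of the same library, the genes followed different patterns. Coro1a amounted to 11.8% and 11.9% of the summed CPM of the 18 macrophage markers in Brg1cKO and to 12.6% and 9.55% in Control, so the groups overlapped. Capg likewise amounted to 1.93% and 1.90% against 2.24% and 1.82%. Lcp1 amounted to 20.0% and 18.4% in Brg1cKO, below the 42.2% and 31.5% in Control, and Tmsb4x to 89.8% and 93.3% against 211% and 178%. Of the 18 macrophage markers, Cd14 had reads in Brg1cKO (8.91 and 14.5 CPM) and none in either Control library. The other 17 had positive log2 fold changes, with a median of 2.10 and a range from 0.62 to 3.77. The 8 markers of megakaryocytes and platelets, which also use these proteins, summed to 61.3 and 60.9 CPM in Brg1cKO and to 0.130 and 21.4 CPM in Control. Those of neutrophils and mast cells summed to 141 and 118 against 9.61 and 41.4 CPM. Most of that sum was the single gene Mpo, at 132 and 97.6 against 7.15 and 41.4 CPM. Of the 8 genes in that list, 3 had 0 reads in every library and only 2 were tested. The 6 markers of lymphocytes summed to 5.16 and 6.67 against 0.130 and 0 CPM. The 10 red blood cell markers went the other way, at 226 and 214 CPM in Brg1cKO against 620 and 664 CPM in Control. The part of these cell types in the differences of the 9 genes was not tested.

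**Figure D3:**
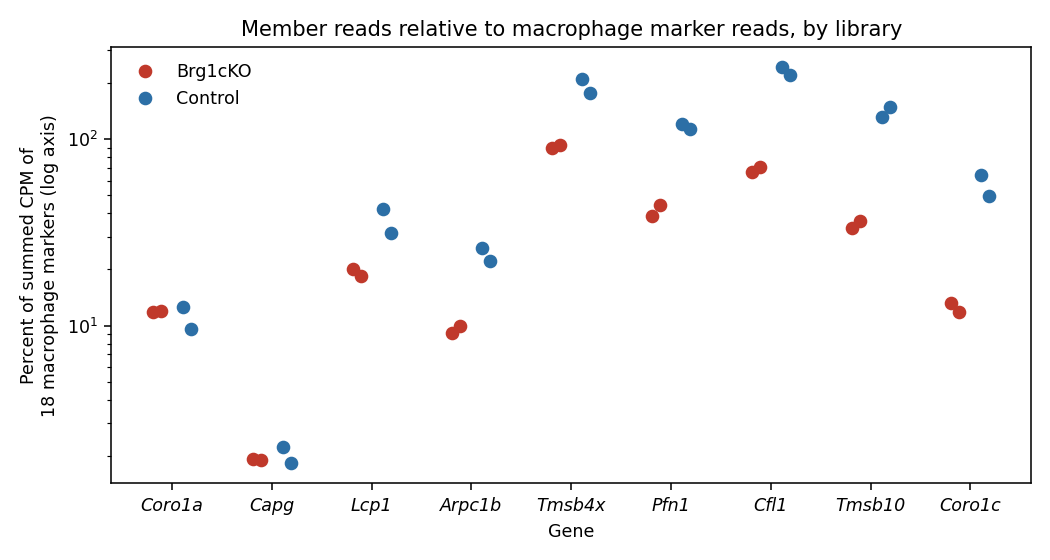
CPM of each measured gene as a percentage of the summed CPM of 18 macrophage markers in the same library, on a log axis, for 2 Brg1cKO (red, left) and 2 Control libraries (blue, right). The groups overlap for Coro1a and Capg, and every other gene is lower in Brg1cKO.

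The contrast between white blood cell forms and their broad relatives was followed over 14 pairs of related cytoskeletal genes, 4 of them led by a gene described above. For 13 pairs both genes were tested, and in 12 the white blood cell form had the larger log2 fold change, with a median difference of 1.62. The exception was Gmfg, a branch-removing factor, at -0.04 against 0.11 for Gmfb. The ratio of the pair was higher in both Brg1cKO libraries than in both Control libraries for 11 pairs and overlapped for 2. Neither count was made for other pairs of genes, so they are a description only. The white blood cell forms had a median log2 fold change of 1.86 and the broad relatives a median of 0.14, where all tested genes had a median of 0.03. With 2 libraries a group, the smallest two-sided exact permutation p of such a ratio is 0.333, so that exact test could not pass. The comparison that chose Coro1a, Lcp1, Arpc1b and Capg enters these counts and medians. Without those 4, the other 10 forms had a median of 1.97, with 9 positive, and in 9 of their 10 pairs the white blood cell form had the larger log2 fold change. None of the 14 forms passed in the fit over all genes (edgeR), and 11 had an unadjusted p under 0.05, the 4 chosen genes among them. Without those 4, it was 7 of 10, against 12.5% of all tested genes. DESeq2 called 9 of the 14 higher, again with all 4 chosen genes among them, where it called 8.33% of all tested genes higher. The only form called by limma voom was the chosen Coro1a, where it called 0.121% of all tested genes higher. Nothing is read from the calls of the 4 chosen genes.

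Within these pairs, Rac2, the Rac GTPase of blood cells, had 77.1 and 66.5 CPM in Brg1cKO and 11.4 and 11.9 CPM in Control, a log2 fold change of 2.62 ± 0.425 (SE) that did not pass (adjusted p = 0.121, edgeR). The ubiquitous Rac1 stood at 346 and 353 against 284 and 337 CPM. Fmnl1, a formin made mainly by leukocytes, had 67.4 and 82.9 against 16.05 and 17.9 CPM, and its relative Fmnl2 at 69.7 and 80.8 against 99.2 and 131 CPM. Was, the Wiskott-Aldrich protein that switches on Arp2/3 in blood cells, reached 52.5 and 24.6 against 2.86 and 5.73 CPM, and Wasl, its form in most cells, at 96.2 and 118 against 88.3 and 64.5 CPM. Replicates of the white blood cell forms were at times far apart in Control: Nckap1l, a subunit of the blood cell WAVE complex, showed 79.6 and 84.0 CPM in Brg1cKO and 16.1 and 76.1 CPM in Control.

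**Figure D4:**
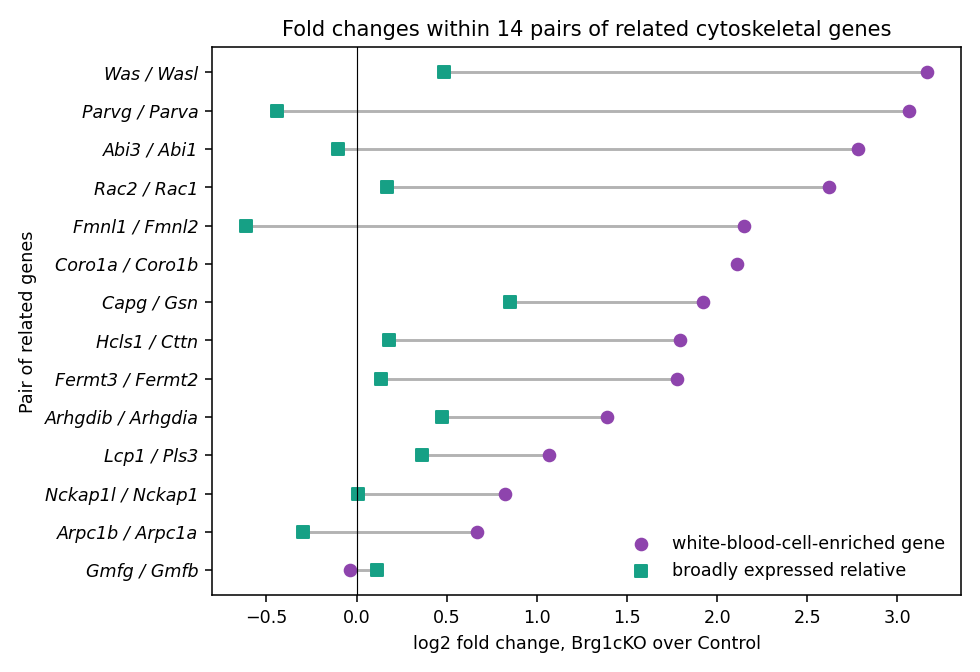
The log2 fold change, Brg1cKO over Control, of 14 pairs of related genes, with the white-blood-cell-enriched gene as a circle and its broadly expressed relative as a square. The circle lies to the right in 12 of 13 complete pairs, and Coro1b has no square because it was not tested.

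A list of actin genes by role held 136 counted genes, of which 127 were tested, with a median log2 fold change of 0.25. Without the 10 genes above, 118 were tested, 73 positive and 45 negative, with a median of 0.22. Over all tested genes, 51.5% were positive and the median was 0.03. Leaving out the white blood cell forms of the pairs as well, 112 were tested, 68 positive and 44 negative, with a median of 0.18. None of the 118 passed (edgeR), and 28 had an unadjusted p under 0.05, against 12.5% of all tested genes. DESeq2 called 21 of them higher and 6 lower, against 8.33% and 6.30% of all tested genes, and limma voom called 1 higher, Acta2. Both Brg1cKO libraries stood above both Control libraries for 40.7% of them, against 26.3% of all tested genes, and below for 16.1%, against 17.8%.

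Among the actins themselves, Actb, the main cytoplasmic form, stood at 4842 and 5160 CPM in Brg1cKO and at 3920 and 3628 CPM in Control (log2 fold change 0.41 ± 0.0668 SE, adjusted p = 0.121, edgeR). Actg1, the other cytoplasmic form, was narrowly lower, at 303 and 297 against 305 and 342 CPM. The muscle actins showed the widest gaps. Acta2, of smooth muscle, stood at 137 and 166 against 31.6 and 20.5 CPM (adjusted p = 0.0840, edgeR), and Actc1, of the heart and embryonic muscle, at 145 and 133 against 17.3 and 34.2 CPM (adjusted p = 0.121, edgeR). In the same libraries the 10 markers of striated muscle and heart, Actc1 among them, summed to 770 and 774 CPM in Brg1cKO and to 167 and 145 CPM in Control. The 7 of smooth muscle and pericytes, which include Acta2, summed to 444 and 447 against 174 and 185 CPM. Their part in the muscle actins was not tested.

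Of the Arp2/3 complex, 10 genes were tested, 8 of them positive, and the median log2 fold change was 0.34. The chosen Arpc1b is among them. Chosen genes also enter the medians given below for cofilin genes, monomer binders, coronins, bundlers and cappers. Medians by role were not taken without them, so they are a description only. Actr2, an actin-related core subunit, stood at 330 and 355 CPM in Brg1cKO and at 186 and 220 CPM in Control (adjusted p = 0.228, edgeR), and Arpc5 at 152 and 178 against 108 and 106 CPM. Arpc3, another subunit, stood at 122 and 146 against 109 and 183 CPM, with the Control libraries on either side of the Brg1cKO ones. The 20 nucleation-promoting factors had a median of 0.14 and ranged from -1.09 to 3.16. Both Brg1cKO libraries stood above both Control libraries for 40% of them, against 26.3% of all tested genes, and below for 15%, against 17.8%. Those with the smallest p were Was, Wasf2 and Hcls1, in that order, and all 3 were higher without overlap. Picking by p favours such a gap, so nothing is read from it. Of these 3, Was and Hcls1 are enriched in blood cells. The 13 cofilin genes and regulators had a median of 0.26. In this list Wdr1, a helper of cofilin, stood at 360 and 350 against 281 and 242 CPM.

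Monomer binders had a median of 0.31 over 11 tested genes, coronins of 0.28 over 6, gelsolin family genes and cappers of 0.17 over 19, and ERM linkers, which tie filaments to the membrane, of 0.34 over 4. Bundlers and crosslinkers had a median of -0.00 over 13, and Fscn1, which bundles filaments in cell protrusions, stood at 745 and 751 CPM in Brg1cKO against 746 and 751 CPM in Control. Formins and Ena/VASP proteins had a median of -0.24 over 13, where Enah, of neurons and epithelia, stood at 247 and 253 against 321 and 384 CPM (adjusted p = 0.368, edgeR). Mtss1, a membrane-bending monomer binder, stood at 138 and 167 against 329 and 276 CPM (adjusted p = 0.176, edgeR). Espn, a bundler of hair cell stereocilia, stood at 11.4 and 10.8 against 27.7 and 39.5 CPM (adjusted p = 0.368, edgeR). Other genes of these lists went the other way with a smaller p. Fhod1, listed with Enah, stood at 116 and 116 against 48.6 and 65.3 CPM, and Flnc, listed with Espn, at 147 and 172 against 103 and 49.0 CPM. In the same libraries the 11 neuron markers summed to 472 and 411 CPM in Brg1cKO against 1425 and 1425 CPM in Control. The part of neurons and otic cells in the differences of Enah, Mtss1 and Espn was not tested. Genes of serum response factor and its actin-sensing partners had a median of 0.30 over 13, with Srf itself at 173 and 191 against 233 and 192 CPM. Of these 13, 9 were positive and 4 negative. The 3 with the smallest p were higher. Zyx stood at 417 and 382 against 191 and 306 CPM, and Tpm1 at 537 and 575 against 387 and 465 CPM. Cnn1, of few reads, stood at 16.1 and 5.90 against 0.325 and 0.159 CPM. Next by p came Mrtfb, one of the actin-sensing partners, which was lower, at 81.4 and 88.0 against 117 and 158 CPM.

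**Figure D5:**
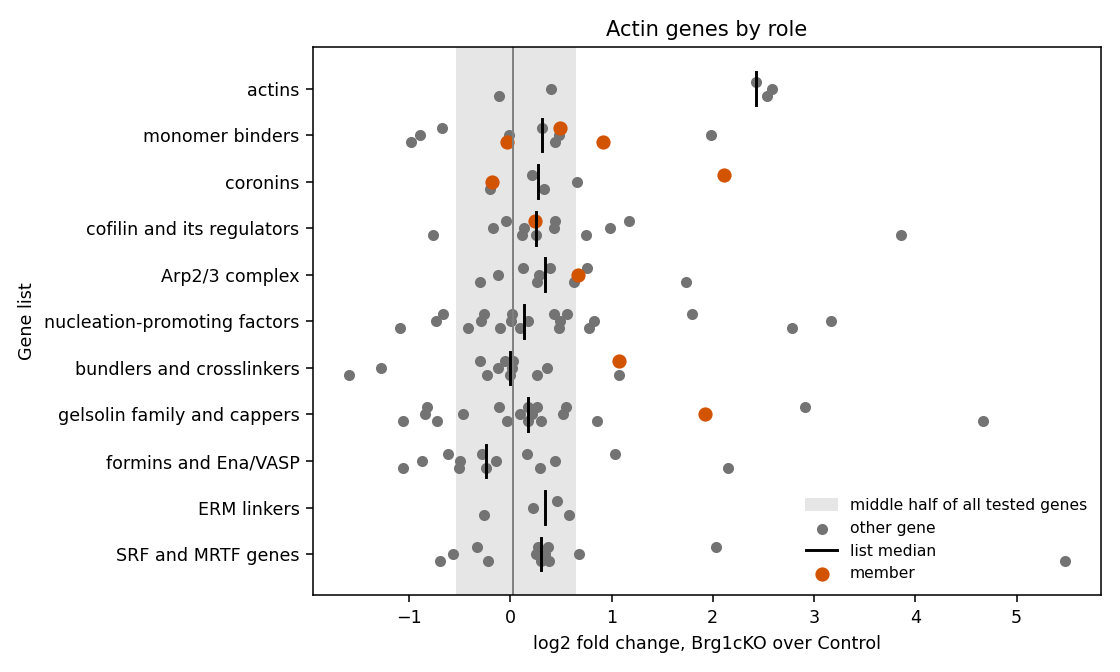
The log2 fold change, Brg1cKO over Control, of each tested actin gene by role, with the genes described first in orange, list medians as black bars, and the median and interquartile range of all tested genes in grey. Coro1a, Capg, Lcp1, Tmsb4x, Pfn1 and Arpc1b lie to the right of their lists' medians. Tmsb10 and Coro1c lie to the left of theirs, and Cfl1 narrowly so.

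The genes most like Tmsb4x and Coro1a over the 4 libraries were found by the root mean squared difference of log2 CPM centred on each gene's mean, among 6901 other genes whose average log2 CPM reached 5. For Tmsb4x these were Cst3 (0.0325), Gpx1 (0.0424), Erh (0.0474), Myrf (0.0498) and Hmmr (0.0552). Cst3, a secreted protease inhibitor, stood at 135 and 128 CPM in Brg1cKO against 73.1 and 69.7 CPM in Control. For Coro1a they were Tnc (0.0900), C1qb (0.0925), Cx3cr1 (0.129), Fmnl1 (0.169) and Ccl3 (0.174). C1qb, a complement subunit of macrophages, stood at 116 and 102 CPM in Brg1cKO against 25.5 and 20.7 CPM in Control, and Cx3cr1, the fractalkine receptor of macrophages, at 165 and 159 against 44.6 and 31.1 CPM. Tnc, a matrix protein, stood at 217 and 219 against 61.5 and 52.1 CPM. Over 4 libraries in 2 groups, likeness mostly states that the size of the group difference was similar.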

How the data were processed

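RNA-seq counts of 2 Brg1cKO and 2 Control libraries were used. The authors deposited raw read counts per Ensembl gene, as whole numbers with no normalization. Per the submitters' processing notes, mm10 was the build and HISAT2, HTSeq and DESeq2 were among the tools, with no role or version stated. Whether counting used strand, and with which annotation, is not given in the sources used here. The 5 lines of each table that name no gene were left out, among them reads in no feature (14.5% to 21.6% of records) and reads not aligned (9.41% to 20.9%). Symbols, positions and exon lengths were taken from the mm10 annotation GENCODE M21, where 52489 of 52636 identifiers had a symbol; levels per kilobase use the merged exons of a gene.

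The test was that of edgeR 4.0.16, run in R 4.3.3 on the raw counts (filterByExpr with a minimum count of 10, TMM, robust quasi-likelihood fit in its installed default form, F-test of group), with Benjamini-Hochberg adjustment over all genes tested and a threshold of 0.05. The SE is the log2 fold change over the root of F. Alternatives used DESeq2 1.42.0 and limma 3.58.1 among 14 settings. The fit was tested on simulated counts. Copies were sought with blastn at 95% identity over at least 75 bases. Gene reads per library ranged from 15357265 to 29361382. Without molecular identifiers, reads are not independent molecules, and depth limits counting error only.

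The genes, the pathway, pair and marker lists and the tests were chosen with earlier results of these data known. The plan was to name the 10 genes, called genes and the 3 smallest p of each role, the pairs, and the 3 most abundant markers of a list. It also held the 5 genes most like Tmsb4x and Coro1a. Only some of the planned names are printed, picked with their values known, and other names were added after their values were seen.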

Additional observations from a re-analysis of the deposited data

How the results depend on the processing

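Under 14 alternatives, 8 of the 9 measured genes kept the sign of their log2 fold change in every one, Tmsb4x between 0.88 and 0.95, Coro1a between 2.01 and 2.19 and Lcp1 between 0.97 and 1.17. Tmsb10 turned positive with upper quartile scaling (0.012), without Control replicate 2 (0.18) and without Brg1cKO replicate 1 (0.0060), and ranged from -0.22 to 0.18 with a library left out. With no library left out, the highest adjusted p of Tmsb4x among the alternatives was 0.0370 (RLE scaling, edgeR). That of Coro1a lay on either side of 0.05, at 0.0667 with RLE scaling and 0.0485 with a count floor of 50 (edgeR). Both genes prompted the choice because they were higher in this comparison, so nothing is read from these p-values. The number of called genes depended on the setting; the cause was not tested. It was 5 in all and 1 among the wider actin genes, against 417 and 12 when all genes with any read were kept. A count floor of 50 gave 10 and 2, DESeq2 gave 2422 and 34, limma voom 54 and 3, and the newer edgeR moderation 70 and 6. With a library left out it ranged from 33 to 3519 and from 2 to 54: without Control replicates 1 and 2 it was 3519 and 3355 (54 and 44 wider actin genes), without Brg1cKO replicates 1 and 2 it was 45 and 33 (4 and 2). A group's lone library is then assumed to vary like the other group. The median of the white blood cell forms ranged from 1.74 to 2.09 in those fits, and that of the broad relatives from 0.05 to 0.28. With the replicate number as a block, 140 genes and 7 wider actin genes were called. Same-numbered libraries did not deviate together (correlation -0.00528 over genes). With 2 libraries a group this is a single correlation, which cannot settle whether the numbers pair the samples. RLE scaling gave an overall median of -0.01 and upper quartile scaling 0.07, beside 0.03 under TMM.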
